A study of Rattus norvegicus with 8 samples.

Results

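The genes described here are 9 genes for ion channels and ion transporters of the thyrocyte, Slc4a4, Ano1, Kcnq1, Kcne2, Cftr, Atp1b1, Slc12a2, Clcn3, and Clcn5, of 30560 genes in the count table. They were chosen by gene symbol for their roles in iodide uptake, bicarbonate transport, and follicular fluid, and each gene is represented by its transcript with the highest count summed over the samples. Thyroid RNA from 8 male Wistar rats was measured by RNA-Seq, with 2 rats in each of 4 groups. Cervical X-irradiation at 4 Gy was given at 1 week (1w4Gy) or 4 months of age (4m4Gy), with sham irradiation at each age as the control (1w0Gy and 4m0Gy). The thyroids were taken about 8 weeks later. No diet, drug, or allele distinguished the groups in the labels, the beam passed through a gap in lead plates over the neck, and the 2 RNA samples of a group came from different rats and were picked for RNA integrity. Each thyroid was whole tissue, so fewer cells of a type and less RNA per cell cannot be told apart.

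The thyrocyte takes up iodide across its basolateral membrane through the sodium-iodide symporter, Slc5a5, which uses the sodium gradient that the sodium pump maintains. Potassium brought in by the pump leaves through channels such as the complex of KCNQ1 with its accessory subunit KCNE2, and loss of Kcne2 in mice is known to impair iodide uptake. At the apical side, chloride and bicarbonate transport sets the volume and pH of the follicle lumen, where thyroglobulin is iodinated, and endosomal chloride-proton exchangers take part in the handling of thyroglobulin taken back up. TSH stimulates many of these steps through cAMP.

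Each sample had between 14835400 and 18138102 counts on genes, and thyroglobulin (Tg) took 18.5% to 21.3% of them. All 15 thyrocyte markers were present in every sample, with a summed level of 190932 to 226731 CPM, where CPM scales counts to library size after TMM normalization. Parathyroid markers summed to 4796 to 7317 CPM in 1w0Gy and 3068 to 4378 CPM in 1w4Gy, without overlap. They summed to 5630 to 7549 CPM in 4m0Gy, and to 7760 and 644 CPM in the first and second 4m4Gy sample. Fibroblast markers summed to 2231 to 3061 CPM in the 1-week groups and 847 to 1148 CPM in the 4-month groups. C cell markers summed to 2144 to 3366 CPM in 1w0Gy and 1949 to 2761 CPM in 1w4Gy. At 4 months the C cell sums were 4287 to 5494 CPM in 4m0Gy and 6126 to 7036 CPM in 4m4Gy, without overlap. The part of these other cells in the results below was not tested. With 2 rats per group, an adjusted p weighs a difference only against the spread between these samples, estimated in part from other genes.

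Promoter windows of 300 bases (250 before and 50 after the start) were listed by RefSeq for 6 of the 9 genes, in assembly GRCr8. Windows of 2 genes are shown, that of Slc4a4, the gene with the largest response at 1 week, and the upstream one of Clcn3, the one window of these genes with a complete cAMP response element. Capitals mark the repeat CGGCGGCGG in Slc4a4 (chr14:19468233-19468532, minus strand) and the motif TGACG on either strand in Clcn3 (chr16:34137754-34138053, plus strand), both printed 5′ to 3′ on the strand of the gene.
Slc4a4: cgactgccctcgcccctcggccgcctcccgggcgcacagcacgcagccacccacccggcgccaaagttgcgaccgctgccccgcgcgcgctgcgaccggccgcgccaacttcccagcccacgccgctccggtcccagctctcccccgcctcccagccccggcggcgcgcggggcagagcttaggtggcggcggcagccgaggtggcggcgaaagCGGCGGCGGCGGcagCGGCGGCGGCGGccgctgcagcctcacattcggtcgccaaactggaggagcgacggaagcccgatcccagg
Clcn3: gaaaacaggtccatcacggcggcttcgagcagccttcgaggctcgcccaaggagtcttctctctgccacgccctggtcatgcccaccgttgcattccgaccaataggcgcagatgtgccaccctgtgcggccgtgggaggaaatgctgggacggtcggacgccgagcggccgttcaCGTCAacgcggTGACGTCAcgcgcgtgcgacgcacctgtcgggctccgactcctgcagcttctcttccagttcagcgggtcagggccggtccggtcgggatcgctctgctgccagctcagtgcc

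The Slc4a4 window was 78.0% G and C, against a median of 51.7% over all 33469 windows. It held the repeat CGGCGGCGG at 4 positions, which overlap in pairs, and 3.24% of all windows held it at least once on either strand. It held no cAMP response element, GC box, CCAAT box, or TATA box on either strand, with the letters given below. The Clcn3 window held 1 cAMP response element, TGACGTCA, which stood in 1.83% of all windows. The shorter motif TGACG matched it at 3 positions, 2 of them within that element. At least 1 match of the shorter motif was present in 21.2% of all windows. The GC box GGGCGG stood in 33.1% of all windows, with 5 positions in Ano1, 3 in Slc12a2, 2 in Cftr, and 1 in 1 of the 2 windows of Clcn5. A CCAAT box was found in the windows of Cftr and Clcn3 and in 37.5% of all windows, and a TATA box, spelled TATAAA, in none of the members' windows and in 14.2% of all windows. These letters are described as sequence only.

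Per kilobase of transcript, the 9 genes covered a wide range of levels. Atp1b1, the beta subunit that brings the sodium pump to the membrane, stood at 484 ± 44.6 CPM per kb (SD over n = 8 samples), above 99.6% of the genes tested. Ano1, the calcium-activated chloride channel, was next with 31.6 ± 3.65 CPM per kb. Slc4a4, the electrogenic sodium-bicarbonate cotransporter NBCe1, followed with 16.7 ± 4.59, Kcne2 with 16.1 ± 1.72, and Clcn3, an endosomal chloride-proton exchanger, with 13.6 ± 0.939 CPM per kb. The ranges of Slc4a4, Kcne2, and Clcn3 overlapped over the samples, so their order is not fixed by these data. Slc12a2, the sodium-potassium-chloride cotransporter NKCC1, had 9.79 ± 0.857 CPM per kb, and Kcnq1, the pore-forming potassium channel subunit, 1.60 ± 0.479 CPM per kb. On its chosen transcript, the accessory subunit Kcne2 was thus higher per kb than Kcnq1, its partner, in every sample. This order depended on the transcript, since in the first 1w0Gy sample the longest Kcne2 transcript had 56 counts over 2270 bases against 97 counts over 2963 bases for Kcnq1. Whether reads of a neighbouring gene were counted in the chosen Kcne2 transcript was not tested. Clcn5, the exchanger mutated in Dent disease, was low at 0.402 ± 0.128 CPM per kb, which rested on 10 to 28 counts per sample.

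**Figure D1:**
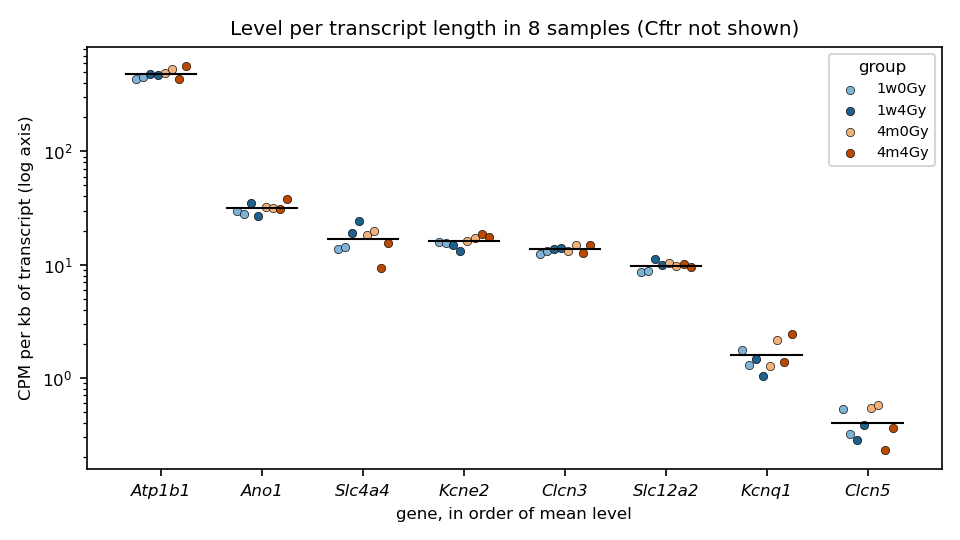
CPM per kb of transcript on a log axis for the 8 genes tested, in order of mean level, with 1 point per sample coloured by group and a line at the mean of 8 samples. Atp1b1 lies near 484, Ano1 near 31.6, and Clcn5 near 0.402 CPM per kb, and the points of Slc4a4, Kcne2, and Clcn3 overlap.

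Cftr, the cAMP-regulated chloride and bicarbonate channel, had 1 count in the first 1w4Gy sample, 1 count in the first 4m4Gy sample, and 0 counts in the other 6. A count of 0 allows up to 3 counts, or 0.165 to 0.202 CPM at these depths, and this limit covers counting error only. Cftr was therefore not detectable above that limit, and it was not kept by the filter on low counts in any comparison. Slc26a4 (pendrin), the apical anion exchanger of the thyrocyte, was also low, from 0 to 0.388 CPM. For 8 genes the counts were largely repeated over annotated transcripts and not divided among them, the second transcript holding 84.9% to 100% of the first. Summing over transcripts can therefore count a read more than once. Kcne2 differed in that its chosen transcript had 4218 counts in all and the other 3 transcripts 407 to 441.

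Slc4a4 carried the largest difference of these genes at 1 week. Its level was 50.1 and 52.3 CPM in the 1w0Gy samples and 69.3 and 89.6 CPM in the 1w4Gy samples. It was 66.6 and 72.4 CPM in the 4m0Gy samples and 34.0 and 57.0 CPM in the 4m4Gy samples. Both 1w4Gy samples thus lay above both of their controls, and both 4m4Gy samples lay below theirs. The group means were 51.2 ± 1.60, 79.4 ± 14.4, 69.5 ± 4.08, and 45.5 ± 16.3 CPM (SD, n = 2 each) in 1w0Gy, 1w4Gy, 4m0Gy, and 4m4Gy, so the spread was wider in the irradiated groups.

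With irradiation at 1 week, the log2 fold change of Slc4a4 was 0.63 (SE 0.13), a ratio of means of 1.55, and its adjusted p was 0.641 by the quasi-likelihood test of edgeR, Benjamini-Hochberg adjusted over 15359 genes. The difference did not pass, and its unadjusted p of 0.0015 ranked 34 among these genes. By the DESeq2 Wald test the same log2 fold change of 0.63 had an adjusted p of 0.047 and passed. Leaving out the first 1w4Gy sample gave 0.81 with an adjusted p of 0.0039, and leaving out the second gave 0.44 with an adjusted p of 0.094. Slc4a4 was among the genes that the study selected on these same samples, so this response is not independent evidence of its direction, and the study's separate PCR measurements of the gene were not used here.

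With irradiation at 4 months, the log2 fold change of Slc4a4 was -0.61 (SE 0.30, edgeR adjusted p = 0.711). This value depended on the first 4m4Gy sample, the lowest of all 8. Without it the value was -0.29, and without the second 4m4Gy sample it was -1.04 with an adjusted p of 0.046. The difference between the responses at the 2 ages, 1w4Gy against 1w0Gy minus 4m4Gy against 4m0Gy, was 1.24 (SE 0.34). Its adjusted p was 0.425 by edgeR and 0.0064 by DESeq2, and over the samples left out in turn it ranged from 0.92 to 1.67. Higher in both 1w4Gy samples and lower in both 4m4Gy samples than in all controls of that age was found for 4.84% of 15684 genes. Averaged over both ages, irradiation left a log2 fold change of 0.02 (SE 0.31) for Slc4a4.

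Relative to each gene compared (Tg, Slc5a5, Pax8, Atp1b1, and Slc12a2), the 4-month groups of Slc4a4 stayed apart. The 1-week groups did so relative to Tg, Atp1b1, and Slc12a2, but not to Slc5a5 or Pax8. The log2 ratio of Slc4a4 to Tg was -11.84 and -11.92 in the 1w0Gy samples and -11.44 and -11.21 in the 1w4Gy samples. The 4-month values were -11.65 and -11.52 without and -12.39 and -11.89 with irradiation. The groups of each age did not overlap in the ratio to Tg. The log2 ratio to Atp1b1 was -4.49 and -4.47 in 1w0Gy and -4.15 and -3.76 in 1w4Gy. That to Slc12a2 was -0.13 and -0.11 in 1w0Gy and -0.06 and 0.49 in 1w4Gy. The log2 ratio to Slc5a5, the symporter, was -2.74 and -2.91 in 1w0Gy and -2.87 and -1.96 in 1w4Gy, and that to Pax8, a thyroid transcription factor, was -3.59 and -3.23 in 1w0Gy and -3.24 and -2.58 in 1w4Gy. The ratios to Slc5a5 and Pax8 thus overlapped at 1 week. At 4 months neither overlapped, at -2.92 and -2.86 without and -3.70 and -3.69 with irradiation for Slc5a5, and -3.19 and -3.12 without and -4.52 and -3.60 with irradiation for Pax8. At 1 week the thyrocyte markers Tg, Slc5a5, and Pax8 had log2 fold changes of 0.07, 0.24, and 0.12. At 4 months they had -0.10, 0.19, and 0.25, and none of these passed the edgeR test. Of the 15 thyrocyte markers, 2 had an unadjusted p under 0.05 by edgeR for the difference between the ages, against 9.12% of all genes. Both were positive, as for Slc4a4, and the median over the 15 was 0.06. Slc5a8, with the smallest p, had 0.40 at 1 week, -0.17 at 4 months, and a difference of 0.57 (SE 0.14, edgeR adjusted p = 0.400). Hhex had 0.41, -0.47, and 0.88 (SE 0.31, edgeR adjusted p = 0.487). Endothelial markers summed to 678 to 697 CPM in 1w0Gy and 803 to 828 CPM in 1w4Gy, and their part in the Slc4a4 difference was not tested.

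**Figure D2:**
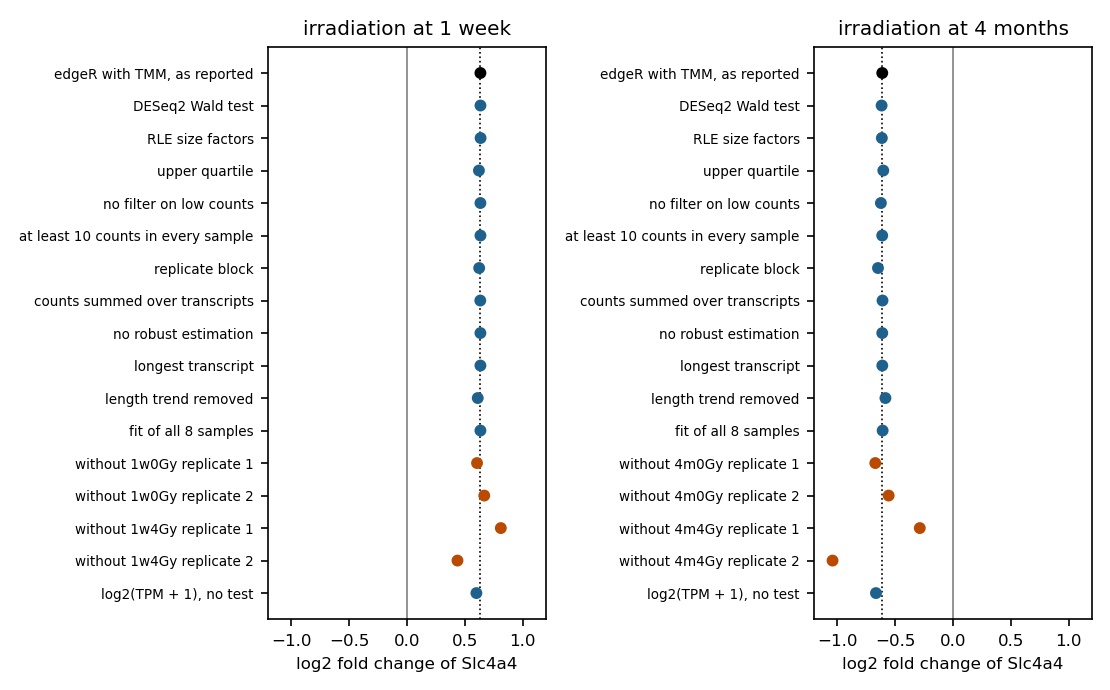
Log2 fold change of Slc4a4 with irradiation at 1 week (left) and 4 months (right) under each setting, where the black point and dotted line are the edgeR value reported, blue points other settings, and orange points fits without 1 sample. The values stay above 0 at 1 week (0.44 to 0.81) and below 0 at 4 months (-1.04 to -0.29), and only leaving out an irradiated sample moves them far.

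The genes whose levels followed Slc4a4 most closely were Peli2, a pellino ubiquitin ligase, Foxk1, a forkhead transcription factor, Cyria, a regulator of Rac1, Rc3h1, the RNA-binding protein roquin-1, and ENSRNOG00000066003, which has no name in the table. The root mean square difference of their log2 profiles from that of Slc4a4 over the 8 samples was 0.080, 0.103, 0.128, 0.133, and 0.141, against a median of 0.433 over 15676 genes. Like Slc4a4, all 5 were highest in the second 1w4Gy sample and lowest in the first 4m4Gy sample. Because they were picked for likeness over these same samples, shared extremes largely follow from the choice. The latter was the lowest of the 8 for 14.4% of the 15684 genes, and for 5.70% of genes it was the lowest and the second 1w4Gy sample the highest. This likeness is a description over 8 samples, and at each point the genes share the library of that sample and its depth.

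**Figure D3:**
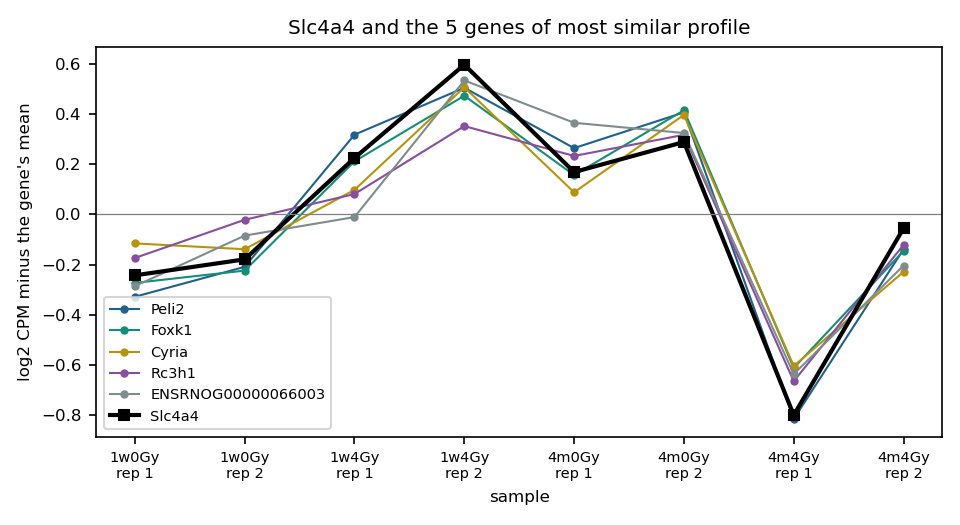
Log2 CPM minus the gene's own mean in each of the 8 samples for Slc4a4 (black squares) and the 5 genes with the most similar profile (coloured circles). All 6 lines have their lowest point in the first 4m4Gy sample, and their highest in the second 1w4Gy sample.

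Slc12a2 brings chloride into epithelial cells together with sodium and potassium. In the 1-week groups its level was 54.9 and 56.6 CPM after sham irradiation and 72.3 and 64.0 CPM after 4 Gy. In the 4-month groups the values were 66.1 and 62.0 CPM after sham irradiation and 64.6 and 60.9 CPM after 4 Gy. The 1w0Gy samples were thus the lowest of the 8. With irradiation at 1 week, its log2 fold change was 0.29 (SE 0.09, edgeR adjusted p = 0.85, unadjusted p = 0.014), and at 4 months it was -0.03 (SE 0.08). The difference between the ages was 0.32 (SE 0.12, adjusted p = 0.476), and it was 0.16 once the trend with length was taken out of each sample.

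The chloride channel Ano1 had 140.4 and 131 CPM in the 1w0Gy samples and 165 and 125 CPM in the 1w4Gy samples. At 4 months Ano1 had 152 and 147.7 CPM in the controls and 146 and 177 CPM in the irradiated samples. The irradiated samples overlapped their controls at both ages. The log2 fold changes were 0.09 (SE 0.13) at 1 week and 0.11 (SE 0.10) at 4 months, within the spread between replicates.

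The potassium channel subunits Kcne2 and Kcnq1 did not pass the edgeR test in any comparison. Kcne2 had 31.8 and 30.9 CPM in the 1w0Gy samples and 29.6 and 26.6 CPM in the 1w4Gy samples. Its 4-month values were 32.2 and 34.1 CPM in the controls and 37.6 and 35.2 CPM in the irradiated samples. Its irradiated samples lay below their controls at 1 week and above them at 4 months, by log2 fold changes of -0.16 (SE 0.10) and 0.13 (SE 0.09). The difference between the ages was -0.29 (SE 0.13, edgeR adjusted p = 0.546, unadjusted p = 0.049). Counted on its longest transcript, with 441 counts in all, Kcne2 had a difference of -0.36 between the ages. On that transcript the 1-week groups were not apart, with 56 and 43 counts in 1w0Gy and 42 and 43 in 1w4Gy.
Kcnq1 had 5.23 and 3.88 CPM in the 1w0Gy samples and 4.35 and 3.09 CPM in the 1w4Gy samples. At 4 months its 2 controls had 3.75 and 6.33 CPM and the irradiated samples 4.11 and 7.25 CPM. The groups overlapped at both ages, and the log2 fold changes of -0.29 (SE 0.27) and 0.17 (SE 0.36) at the 2 ages did not pass the test.

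Atp1b1 had 1125 and 1156 CPM in the 1w0Gy samples and 1233 and 1212 CPM in the 1w4Gy samples. Its 4-month controls had 1263 and 1354 CPM and the irradiated samples 1126 and 1449 CPM. Its 1w4Gy samples were above their controls by a log2 fold change of 0.10 (SE 0.11), and the 4m4Gy samples lay on either side of theirs (-0.03, SE 0.12).

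The endosomal exchanger Clcn3 had 64.7 and 68.0 CPM in the 1w0Gy samples and 71.6 and 72.5 CPM in the 1w4Gy samples. The 4-month controls had 68.2 and 77.1 CPM and the irradiated samples 65.7 and 77.5 CPM. The log2 fold changes were 0.12 (SE 0.08) at 1 week, without overlap of the groups, and -0.03 (SE 0.10) at 4 months. Clcn5 had 28 and 16 counts in the 1w0Gy samples and 13 and 18 counts in the 1w4Gy samples. The 4-month controls had 24 and 28 counts and the irradiated samples 10 and 16. Its log2 fold changes were -0.35 (SE 0.42) at 1 week and -0.91 (SE 0.41, edgeR adjusted p = 0.598) at 4 months, where both irradiated samples lay below both controls. At so few counts a change of this size was not separated from the spread.

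**Figure D4:**
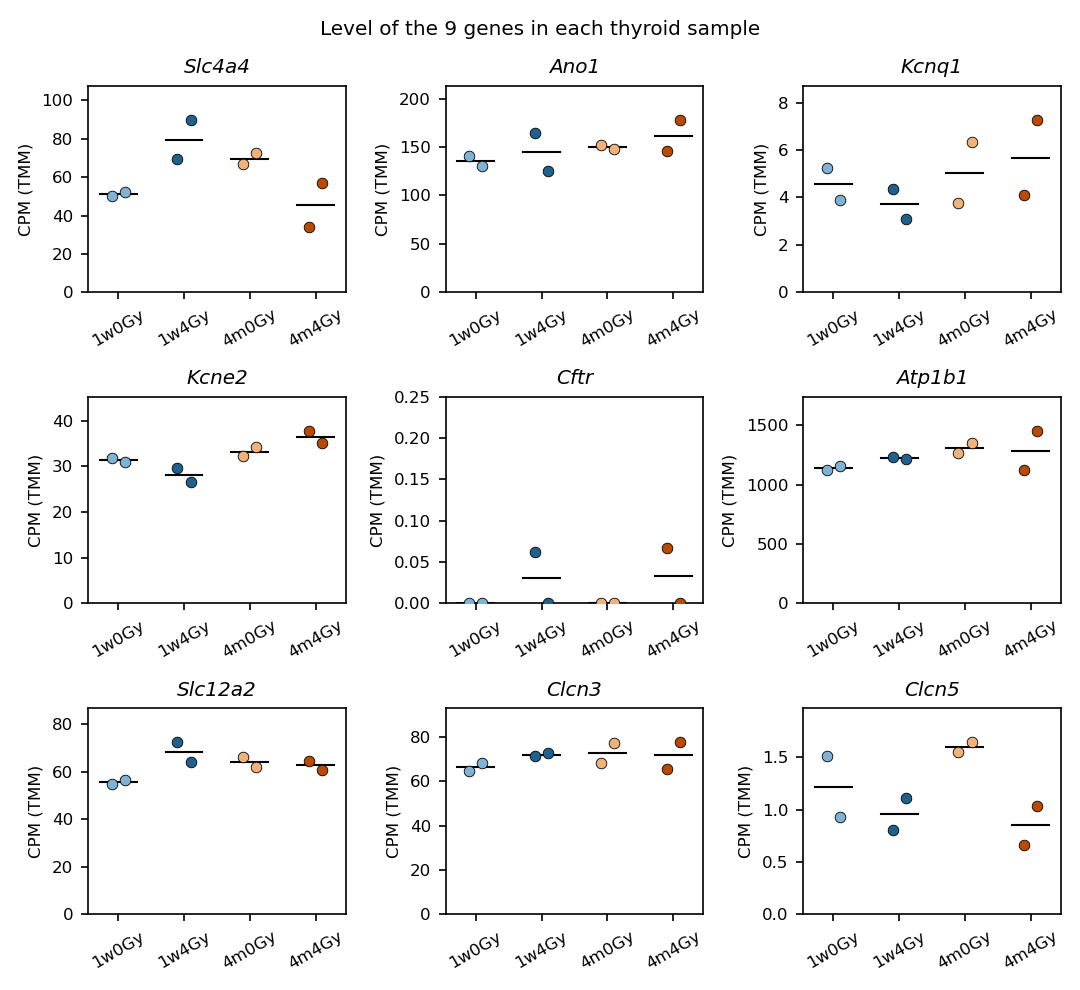
CPM of each of the 9 genes in the 8 samples, each panel with its own axis from 0, where points are samples and lines group means (n = 2). Slc4a4 is higher in 1w4Gy (69.3 and 89.6) than in 1w0Gy (50.1 and 52.3) and lower in 4m4Gy (34.0 and 57.0) than in 4m0Gy (66.6 and 72.4), and Cftr is at or near 0.

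Over the members, 8 of 9 were tested in each comparison, Cftr being the exception. At 1 week 0 of the 8 were called, that is, had both an adjusted p below 0.05 and a fold of more than 1.5 or less than 0.5, as were 0.00651% of 15359 genes. Slc4a4 and Slc12a2, 2 of the 8, had an unadjusted p under 0.05 by edgeR, against 5.68% of all genes. Of the members DESeq2 called Slc4a4 alone, and over all 21231 genes it called 9 that were higher and 4 that were lower. The 1w4Gy samples both lay above their controls for 4 members (Slc4a4, Atp1b1, Slc12a2, and Clcn3) and both below for Kcne2, against 17.7% and 17.8% of all genes. The median log2 fold change was 0.10 over the 8 members and 0.00 over all genes tested.

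At 4 months 0 of the 8 members were called by edgeR or DESeq2, as were 0.0197% of 15253 genes by edgeR, and 0 of the 8 had an unadjusted p under 0.05, against 8.39% of genes. Both 4m4Gy samples were above their controls for Kcne2 and below for Slc4a4 and Clcn5, against 20.9% and 18.7% of all genes, so the members' counts were near the background. For the comparisons that follow, a call required the adjusted p alone. For the difference between the ages, edgeR called 0 of 8 members and 0.0% of 15684 genes. DESeq2 called 21 of 22179 genes, Slc4a4 among them. An unadjusted p under 0.05 was reached by Slc4a4, Slc12a2, and Kcne2, 3 of 8 members, and by 9.12% of genes. For irradiation over both ages edgeR called 0 of 8 members and 0.0128% of genes, DESeq2 called 0 members, and 0 members and 3.89% of genes had an unadjusted p under 0.05.

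**Figure D5:**
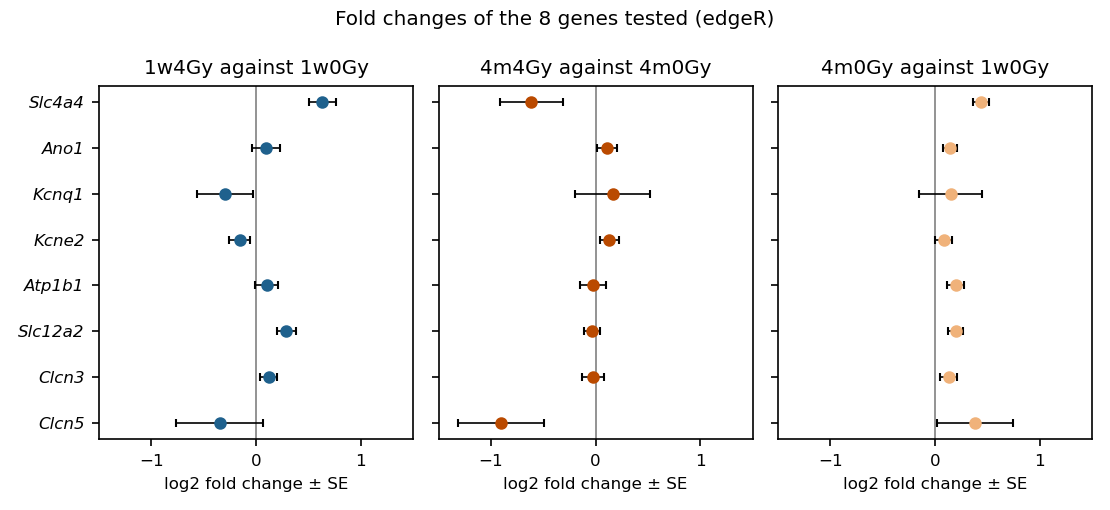
Log2 fold change (point) and its SE (bar) by edgeR for the 8 genes tested, with irradiation at 1 week (left), with irradiation at 4 months (middle), and with age in sham-irradiated rats (right). Slc4a4 lies at 0.63, -0.61, and 0.44, Clcn5 at -0.35, -0.91, and 0.38 with wide bars, and all 8 genes lie above 0 in the right panel.

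Between the sham-irradiated groups, about 9 weeks and about 6 months old when the thyroid was taken, all 8 members had a log2 fold change above 0 in 4m0Gy against 1w0Gy. These samples are also the controls of the irradiation comparisons. For 7 members, all but Kcnq1, both 4m0Gy samples lay above both 1w0Gy samples, against 25.4% of all genes, and for 0 members both lay below, against 24.8%. The median was 0.17 over the members, 0.14 over the 15 thyrocyte markers, and 0.00 over all genes. Fibroblast markers had a median of -1.35, and the part of the cell mix in the members' rise was not tested. Slc4a4 rose with a log2 fold change of 0.44 (SE 0.08, edgeR adjusted p = 0.049) and was the 1 member called, against 1.06% of 15364 genes. Slc4a4, Slc12a2 (0.20, SE 0.07), and Atp1b1 (0.20, SE 0.08) had an unadjusted p under 0.05, as did 17.8% of genes. The call of Slc4a4 was close to the threshold, since its adjusted p was 0.050 with DESeq2's size factors and 0.058 with upper-quartile ones, and it was lost without either 1w0Gy sample (0.237 and 0.185). Slc5a5 had a log2 fold change of 0.50 (SE 0.09, adjusted p = 0.0545) in the same comparison, with 335 and 392 CPM in 1w0Gy and 505 and 525 CPM in 4m0Gy.

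Beside the members, 171 other genes of epithelial ion and water transport were listed in 6 groups by role, of which 159 were found and 127 to 132 were tested. With irradiation at 1 week, at 4 months, over both ages, and in the difference between the ages, 0 of them were called by edgeR. DESeq2 called 1 of 155, Aqp1, over both ages and 0 in the other 3 comparisons. Over both ages DESeq2 called 9 higher and 3 lower of all 22179 genes. An unadjusted p under 0.05 was reached by 13 of 130 genes at 1 week, 8 of them higher, against 5.68% of all genes, and by 14 of 127 at 4 months, 6 of them higher, against 8.39%. It was reached by 9 of 132 for the difference, against 9.12%, and by 8 of 132 over both ages, against 3.89%. With age, 29 of 128 reached it, 22 of them higher, against 17.8% of all genes. Of these genes edgeR called 4 with age, against 1.06% of all genes. DESeq2 called 7 that rose and 1 that fell of 151 listed genes. Over all 21241 genes DESeq2 called 145 that rose and 199 that fell.

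Among 37 genes of bicarbonate and acid-base transport, the most abundant was Slc4a5, another electrogenic sodium-bicarbonate cotransporter, with 130.4 CPM per kb, well above the 16.7 of Slc4a4. Its log2 fold changes were -0.10 (SE 0.11) at 1 week and -0.14 (SE 0.09) at 4 months. At 1 week 4 of 29 tested had an unadjusted p under 0.05, against 5.68% of all genes, the smallest being that of Ca3, carbonic anhydrase 3 (-0.72, SE 0.12, edgeR adjusted p = 0.507). At 4 months 5 of 30 did, against 8.39% of all genes, and all 5 were lower, with a list median of -0.17 against 0.01 over all genes, and Car2, the cytosolic carbonic anhydrase 2, had the smallest p (-0.38, SE 0.08, adjusted p = 0.289). For the difference between the ages, Slc26a7, an anion exchanger needed for thyroid hormone synthesis, had the smallest p (0.47, SE 0.13, adjusted p = 0.415). Slc26a7 had 144 and 152 CPM in the 1w0Gy samples, 168 and 181 CPM in the 1w4Gy samples, 200.2 and 189.9 CPM in the 4m0Gy samples, and 151 and 179.5 CPM in the 4m4Gy samples. Its irradiated samples, like those of Slc4a4, were above the controls at 1 week and below them at 4 months. With age, Ca4, the membrane-bound carbonic anhydrase 4, rose by 1.09 (SE 0.15, adjusted p = 0.033) and Ca3 fell by 0.89 on the log2 scale (SE 0.12, adjusted p = 0.0393). Markers of adipocytes, cells known to be rich in Ca3, summed to 278 to 383 CPM in 1w0Gy, 191 to 202 CPM in 1w4Gy, and 124 to 239 CPM in 4m0Gy. At 1 week 6 of the 8 adipocyte markers had an unadjusted p under 0.05 by edgeR, against 5.68% of all genes. All 6 were lower, with a median log2 fold change of -0.79 over the 8 markers. The part of adipocytes in the Ca3 differences was not tested.

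Among potassium channels, Kcnk1, a background potassium channel, was the most abundant with 66.4 CPM per kb, close to Kcnj16, an inward rectifier (65.5 CPM per kb). The gene of smallest p was Kcna5, a voltage-gated channel, at 1 week (0.81, SE 0.21, edgeR adjusted p = 0.822) and with age (0.86, SE 0.18, adjusted p = 0.0784). It was Kcnj16 at 4 months (0.21, SE 0.08) and Kcnj11 for the difference (-0.60, SE 0.32). Of chloride and anion channels, Clic3 led with 204.9 CPM per kb, and none of the 27 or 28 tested was called by edgeR in any comparison, while DESeq2 called 1, Clic5, with age. The smallest p belonged to Ano4, at 0.327 CPM per kb, at 4 months (1.25, SE 0.38, adjusted p = 0.447) and to Clic5 with age (0.46, SE 0.08, adjusted p = 0.0558).

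Of the sodium pump, cation-chloride cotransporters, and related genes, Wnk1, a kinase that regulates cation-chloride cotransport, had the smallest p at 4 months (-0.17, SE 0.07) and for the difference (0.28, SE 0.10). Scnn1a, the alpha subunit of the epithelial sodium channel, rose with age by 0.60 (SE 0.09, edgeR adjusted p = 0.0404), from 29.6 and 27.04 CPM to 40.8 and 44.9 CPM, and stood at 43.5 and 52.4 CPM in 4m4Gy.

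Aqp1, a water channel of endothelium and red cells, was the most abundant of the 10 listed water channels with 62.5 CPM per kb. It had 96.1 and 105 CPM in the 1w0Gy samples and 151 and 129 CPM in the 1w4Gy samples. At 4 months Aqp1 had 186 and 188 CPM in the controls and 235 and 222 CPM in the irradiated samples. The irradiated samples were above their controls at both ages. The log2 fold changes were 0.48 (SE 0.10, adjusted p = 0.641) at 1 week and 0.28 (SE 0.07, adjusted p = 0.355) at 4 months by edgeR, neither of which passed. Endothelial markers summed to 678 to 697 CPM in 1w0Gy and 803 to 828 CPM in 1w4Gy. At 1 week 4 of 6 had an unadjusted p under 0.05 by edgeR, all 4 higher, against 5.68% of all genes. At 4 months the endothelial sums were 617 to 729 CPM in 4m0Gy and 713 to 726 CPM in 4m4Gy. The part of endothelial cells in the Aqp1 values was not tested. With age Aqp1 rose by 0.90 (SE 0.07, adjusted p = 0.0143 by edgeR). The endothelial sums of 1w0Gy and 4m0Gy overlapped. Of the 6 endothelial markers, 1 was higher and 1 lower with age at an unadjusted p under 0.05 by edgeR. Of the 3 red cell markers tested, 1 was higher and 2 were lower at that level, with a median log2 fold change of -0.77. The part of either cell type in the rise of Aqp1 with age was not tested.

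Of the endosomal proton pump and uptake receptors, 20 genes were tested and none was called by edgeR or DESeq2 in any comparison. Atp6v0c, a pump subunit, was the most abundant with 274 CPM per kb. Lrp2, the receptor megalin, which binds thyroglobulin, had the smallest p at 4 months (-0.38, SE 0.11, edgeR adjusted p = 0.453) and for the difference between the ages (0.43, SE 0.16). With age 5 of 20 genes had an unadjusted p under 0.05, against 17.8% of all genes, and all 5 were higher in 4m0Gy, the smallest being that of Atp6v0d2 (1.54, SE 0.39, adjusted p = 0.119), at 1.24 and 1.45 CPM in 1w0Gy and 2.58 and 5.22 CPM in 4m0Gy.

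The other members each had a nearest gene of their own in profile over the 8 samples. These were Mt-atp8, a mitochondrial ATP synthase subunit, for Ano1 (root mean square difference 0.057), Pex16 for Kcne2 (0.036), Myrf for Kcnq1 (0.140), Elac1 for Atp1b1 (0.045), Usp54 for Slc12a2 (0.034), Sertad3 for Clcn3 (0.031), and Fanca for Clcn5 (0.166). The median difference over all genes was 0.182 for Clcn3, whose own level varied least, and 0.437 for Clcn5. Among the members themselves, Atp1b1 and Clcn3 were the closest pair (0.054).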

How the data were processed

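Thyroid RNA from 8 rats was sequenced as directional 100 bp paired reads. The authors mapped the reads with hisat2 2.2.1, counted them with featureCounts 2.0.0, and deposited raw counts, RPKM, and TPM per transcript. The genome build is not given in the sources used here. Every test here used the deposited counts. The TPM values, which the authors scaled by length, served for an alternative fold change of log2(TPM + 1), and the deposited RPKM were left out. Gene names are those of the authors' table, in which 7162 of 30560 genes have none. Promoter windows come from RefSeq (GRCr8).

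Counts of the highest transcript per gene were compared by the quasi-likelihood test of edgeR (version 4.0.16, R 4.3.3), TMM normalization, filterByExpr, robust estimation, and Benjamini-Hochberg adjustment over all genes tested. SE is the absolute log2 fold change divided by the square root of F. Irradiation at each age and age in sham-irradiated rats were fitted on their own 4 samples, the other comparisons on all 8. A call required an adjusted p below 0.05 and, for either age of irradiation, a fold past the study's limits of 1.5 and 0.5. The functions were tested on simulated data. Replicates differed beyond sampling noise (chi-square divided by its degrees of freedom, 7.97 to 16.2), so each counted once.

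The members and the gene lists were chosen with earlier results of these data known. Named are all members, in each transport list up to 3 called genes of largest change or else the gene of smallest p, the list's most abundant gene, and the genes of nearest profile (centred log2 CPM, prior count 2). Tg, Slc5a5, Slc5a8, Hhex, Pax8, and Slc26a4 are also named. Some genes under this rule are not reported here. Alternatives were DESeq2 (1.42.0), DESeq2-type (RLE) and upper-quartile size factors, a minimum of 10 counts throughout or no filter, a block for the replicate number, summed transcripts, the longest transcript, a correction for transcript length, no fold limits, a single fit of the 8 samples, and fits without each sample. Fits without robust estimation and with crossed replicate numbers were added after seeing the data.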

Additional observations from a re-analysis of the deposited data

Results flagged for a closer look

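Slc4a4 and Kcne2, each on its chosen transcript, had irradiation responses of opposite direction at the 2 ages in every sample. For Slc4a4 both irradiated samples were higher than their controls at 1 week and lower at 4 months, and the difference between the responses was 1.24 on the log2 scale, with an adjusted p of 0.425 by the quasi-likelihood test of edgeR, Benjamini-Hochberg adjusted, and 0.0064 by DESeq2. For Kcne2 the order was the other way, and the difference was -0.29, with an adjusted p of 0.546 by edgeR. This order of Kcne2 depended on the transcript. On the longest one the 1-week groups were not apart, with 56 and 43 counts in 1w0Gy and 42 and 43 in 1w4Gy. Neither passed the edgeR test. The order seen for Slc4a4 was found for 4.84% of 15684 genes, and the share for the order seen for Kcne2 was not counted.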

How the results depend on the processing

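With 2 rats per group, the spread between rats limits every test, and Clcn5 and Cftr are also limited by their few counts. Of 672 values of single members under the alternatives, 621 kept their direction and their side of the threshold, and the causes of the other changes were not tested. Genes called at 1 week, 1 by edgeR, numbered 13 with DESeq2, 2 without the filter, 11 with the replicate block, and 0 with summed transcripts or without robust estimation. Those at 4 months, 3 by edgeR, numbered 14 without the filter, 12 with the replicate block, 1 in the fit of all 8 samples, and 0 with summed transcripts or without robust estimation. For the difference between the ages, 0 by edgeR, there were 21 with DESeq2 and 6 without the filter. For both ages together, 2 by edgeR, there were 12 with DESeq2, and 1 with at least 10 counts throughout or without robust estimation. With age, 163 by edgeR, there were 344 with DESeq2, 506 without the filter, and 27 with summed transcripts.

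Of the members, DESeq2 called 1, Slc4a4, at 1 week, with age, and for the difference between the ages. The age call of Slc4a4 was also kept without the filter, with at least 10 counts throughout, and with the longest transcript. The age call of Slc4a4 went from 1 to 0 members with RLE or upper-quartile size factors, the replicate block, summed transcripts, no robust estimation, removal of the length trend, and the crossed numbers. Directions reversed for Slc12a2 (0.060) and Clcn3 (0.045) at 4 months after removal of the length trend, and for Kcne2 over both ages with summed transcripts (0.0054) and the longest transcript (0.12).

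The replicate numbers did not pair the samples. The correlation of same-numbered deviations was 0.120 between 1w0Gy and 1w4Gy, 0.121 between 4m0Gy and 4m4Gy, and -0.231 between 1w0Gy and 4m0Gy. With the replicate number as a block, 11, 12, and 13 genes were called at 1 week, at 4 months, and with age, and with the numbers crossed for age 340 were, with 0 members in each.

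Leaving out each sample in turn, where a lone sample is assumed to vary like the others, gave 2 to 45 called genes at 1 week (38 and 45 without the first and second 1w4Gy sample), 3 to 52 at 4 months (51 and 52 without the first and second 4m0Gy sample), 0 to 22 for the difference (22 without the first 1w4Gy sample), 1 to 5 for both ages (5 without the first 4m0Gy sample), and 12 to 744 with age (744 without the second 4m0Gy sample, 12 and 26 without the first and second 1w0Gy sample). Members called ranged from 0 to 1 at 1 week (1 without the first 1w4Gy sample), at 4 months (1 without the second 4m4Gy sample), and with age (0 without either 1w0Gy sample), Slc4a4 being the member each time. The log2 values that changed direction ranged at 1 week from -0.12 to 0.28 for Ano1 and from -0.65 to 0.054 for Clcn5. At 4 months they ranged from -0.052 to 0.24 for Ano1, -0.31 to 0.59 for Kcnq1, -0.23 to 0.14 for Atp1b1, -0.085 to 0.012 for Slc12a2, and -0.16 to 0.089 for Clcn3. For the difference they ranged from -0.23 to 0.16 for Ano1, -0.89 to 0.0083 for Kcnq1, and -0.046 to 0.32 for Atp1b1. Over both ages they ranged from -0.17 to 0.28 for Slc4a4, -0.30 to 0.084 for Kcnq1, -0.058 to 0.051 for Kcne2, and -0.029 to 0.12 for Atp1b1, and with age from -0.29 to 0.47 for Kcnq1.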
